A study of Mus musculus with 6 samples.

Results

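The Hox genes are the members of the 4 Hoxa, Hoxb, Hoxc and Hoxd clusters of mouse, which lie on chromosomes 6, 11, 15 and 2. The Hox family was chosen with earlier results of these data known. Within it, all genes whose array symbol was Hoxa, Hoxb, Hoxc or Hoxd with a paralogue number were taken, whatever their values. This gave 36 genes of the 18545 named genes on the array, with 10 in Hoxa, 9 in Hoxb, 8 in Hoxc and 9 in Hoxd. Their transcript levels were compared between mouse testis, epididymis and SVF, the stromal-vascular fraction, which is the cells of adipose tissue left when adipocytes are removed. Each of the 6 arrays carried the RNA of a tissue pair in the dyes Cy5 and Cy3, and each pair was hybridised again with the dyes exchanged, giving 3 dye swaps of 2 arrays. Neither strain, age, fat depot nor any treatment is given in the labels, and the number of animals behind each RNA is not stated.

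Hox genes encode homeodomain transcription factors that give cells along the body axis their positional identity. Genes of a cluster stand in the order of their paralogue numbers, and those with low numbers are active earlier and nearer the head in the embryo than those with high numbers. Adult tissues keep part of their embryonic Hox pattern, and the epididymis and vas deferens arise from the Wolffian duct, along which Hox genes set regional identity. Hox proteins bind DNA together with TALE homeodomain partners of the Pbx and Meis families. Their clusters are held silent by Polycomb proteins and open under trithorax-group methyltransferases, Cdx factors and retinoic acid.

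Promoters were printed for Hox genes whose ratios stood out and for a neighbour whose ratios did not, from the RefSeq promoter table of GRCm38.p6, which runs from 250 bases before to 50 bases after a transcript start and held 23 promoters for 21 of the 36 genes. Those without an entry include Hoxb2, Hoxb3, Hoxb5, Hoxb6 and Hoxb7. Hoxd8, one of the 3 genes with the largest ratio, is shown with Hoxa5 and Hoxa6, the same-numbered relatives of the others, Hoxb5 and Hoxb6. Hoxd4 and Hoxd9 were added after their values were seen, as members of the group that was higher in epididymis, with Hoxd10, whose ratios were near 0. Capitals mark matches on either strand to 6 short motifs: TGATTNAT of Pbx-Hox dimers, TGACAG of Meis, TTTATNG of Cdx, the TATA box TATAAA, the CCAAT box CCAAT and the GC box GGGCGG.
Hoxd8 promoter, chr2:74704365-74704664 (+ strand): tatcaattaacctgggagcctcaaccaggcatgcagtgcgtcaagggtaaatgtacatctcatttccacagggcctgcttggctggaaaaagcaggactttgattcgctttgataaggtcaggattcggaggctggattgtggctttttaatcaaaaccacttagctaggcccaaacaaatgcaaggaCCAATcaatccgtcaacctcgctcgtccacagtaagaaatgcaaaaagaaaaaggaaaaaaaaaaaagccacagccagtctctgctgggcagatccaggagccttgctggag
Hoxd4 promoter, chr2:74721728-74722027 (+ strand): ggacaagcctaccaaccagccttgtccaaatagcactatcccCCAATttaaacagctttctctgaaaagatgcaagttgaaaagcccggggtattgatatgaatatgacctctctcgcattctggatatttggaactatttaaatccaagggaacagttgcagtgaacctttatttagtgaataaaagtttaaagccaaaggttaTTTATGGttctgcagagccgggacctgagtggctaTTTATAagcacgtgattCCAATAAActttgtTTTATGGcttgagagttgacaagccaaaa
Hoxd9 promoter, chr2:74697513-74697812 (+ strand): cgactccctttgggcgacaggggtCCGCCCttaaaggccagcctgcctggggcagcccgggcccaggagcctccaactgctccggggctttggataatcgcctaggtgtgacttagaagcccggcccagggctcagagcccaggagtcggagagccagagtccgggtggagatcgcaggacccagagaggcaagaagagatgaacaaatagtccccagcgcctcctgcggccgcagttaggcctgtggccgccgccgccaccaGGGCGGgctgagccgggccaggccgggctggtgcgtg
Hoxd10 promoter, chr2:74691641-74691940 (+ strand): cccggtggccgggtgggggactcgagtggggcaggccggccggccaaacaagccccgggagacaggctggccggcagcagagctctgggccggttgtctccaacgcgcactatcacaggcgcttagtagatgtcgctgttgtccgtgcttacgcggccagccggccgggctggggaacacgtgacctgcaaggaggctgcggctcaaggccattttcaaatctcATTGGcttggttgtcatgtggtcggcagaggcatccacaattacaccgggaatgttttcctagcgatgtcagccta
Hoxa5 promoter, chr6:52204538-52204837 (- strand): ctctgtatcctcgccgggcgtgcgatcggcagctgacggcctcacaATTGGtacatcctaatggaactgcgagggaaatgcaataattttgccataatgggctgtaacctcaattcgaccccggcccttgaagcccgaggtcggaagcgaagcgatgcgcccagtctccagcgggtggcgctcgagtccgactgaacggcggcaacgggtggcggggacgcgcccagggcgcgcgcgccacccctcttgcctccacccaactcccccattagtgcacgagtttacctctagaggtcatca
Hoxa6 promoter, chr6:52208623-52208922 (- strand): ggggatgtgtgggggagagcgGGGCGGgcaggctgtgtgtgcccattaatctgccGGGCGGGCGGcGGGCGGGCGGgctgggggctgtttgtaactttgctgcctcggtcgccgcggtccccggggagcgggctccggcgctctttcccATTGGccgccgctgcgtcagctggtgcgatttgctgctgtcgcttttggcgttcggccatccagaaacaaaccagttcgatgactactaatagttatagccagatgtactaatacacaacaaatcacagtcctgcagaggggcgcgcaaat

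Among these 6 windows, Hoxd4 alone held the Cdx motif, with 3 matches, 1 of which overlapped a CCAAT box, and none held the Pbx-Hox or the Meis motif. Over all 23 Hox promoters the Cdx motif stood in 1 (4.35%), against 10.9% of the 32851 promoters in the table. The Pbx-Hox motif stood in 2 (8.7%), against 3.22% of all promoters, and the Meis motif in 2 (8.7%), against 19.2%. CCAAT boxes stood in 14 (60.9%), against 37.4%. GC boxes stood in 9 (39.1%), against 35.7%, and TATA boxes in 3 (13%), against 13.6%. The Hox promoters had a median GC content of 58% and a median of 15 CpG sites, against 52.7% and 7 over all promoters. Hoxd4 lay far from that median with 39.7% GC and 4 CpG sites, and Hoxd8 had 46.7% and 6. Hoxd9, higher in epididymis like both, had 68.3% and 20, and Hoxd10 had 62.7% and 22. These windows of Hoxd4, Hoxd8 and Hoxd9 were thus of unlike composition.

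Values are log2 ratios, so that 1 stands for 2-fold, and the mean of the 2 arrays of a dye swap is given ± SD (n = 2 hybridisations). That SD reflects dye and hybridisation only, because each tissue was 1 RNA sample, and it says nothing of variation among animals. No test between tissues is therefore given. A gene was counted as higher or lower when its log2 ratio was at least 1 in size in the same direction on both arrays. The direction rests on the dyes named in the labels and is likely rather than stated, and the base of the logarithm is taken as 2. In whole tissues, fewer cells of a type and less RNA per cell cannot be told apart. Marker lists moved with the tissue names, and the shares over all named genes stand beside the Hox counts below. Epididymal duct markers were higher in epididymis than in SVF for 13 of 13 measured, with a median of 5.05, and higher than in testis for 12 of 13, with a median of 4.37. Germ cell markers were higher in testis than in SVF for 12 of 14, with a median of 3.93. Stromal and progenitor markers were lower in testis than in SVF for 12 of 13 (median -3.82) and lower in epididymis than in SVF for 9 of 13 (median -2.62). Germ cell markers were also higher in epididymis than in SVF, for 9 of 14.

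In the comparison of epididymis over testis, 13 of the 36 Hox genes (36.1%) were higher in epididymis and 2 (5.56%) were lower. Over all named genes, 14.3% were higher and 18.0% lower by the same rule. In epididymis over SVF, 11 Hox genes (30.6%) were higher and 1 (2.78%) was lower, against 10.2% and 8.68% of all genes. In testis over SVF, 2 Hox genes (5.56%) were higher and 4 (11.1%) lower, against 20.7% and 16.0% of all genes. That split depended on the array. On the array with testis in Cy5, 2 were higher and 11 lower, and on the exchanged array 7 were higher and 6 lower. Shares of all genes on single arrays were not counted. The median Hox ratio was 0.63 in epididymis over testis, 0.30 in epididymis over SVF and -0.27 in testis over SVF, where the medians of all genes were -0.00, 0.07 and 0.00. Both comparisons with epididymis share its RNA, so their values are not independent of each other. In all, 18 of the 36 genes met the size rule in at least 1 comparison and 18 in none. The share of all genes that met it in at least 1 comparison was not counted. These 18 therefore do not show whether Hox genes met the rule more often than other genes.

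**Figure D1:**
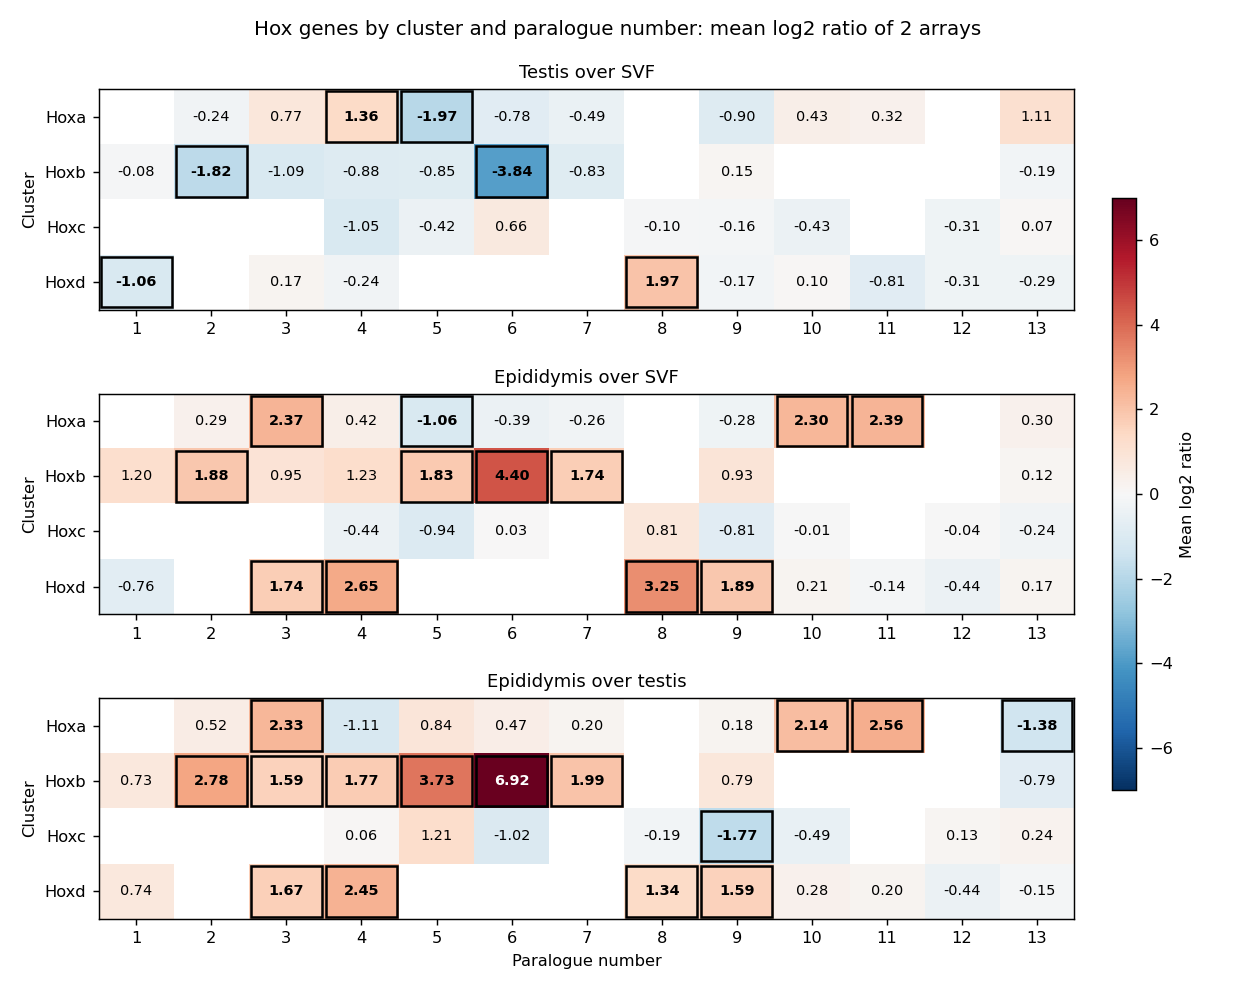
Mean log2 ratio of 2 arrays for each Hox gene, with clusters in rows and paralogue numbers in columns, for testis over SVF, epididymis over SVF and epididymis over testis. Red is higher in the first-named tissue and blue lower, black frames mark genes at least 2-fold apart on both arrays, and blank cells have no value here; framed red cells run from Hoxb2 to Hoxb7 in the lowest panel.

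**Figure D2:**
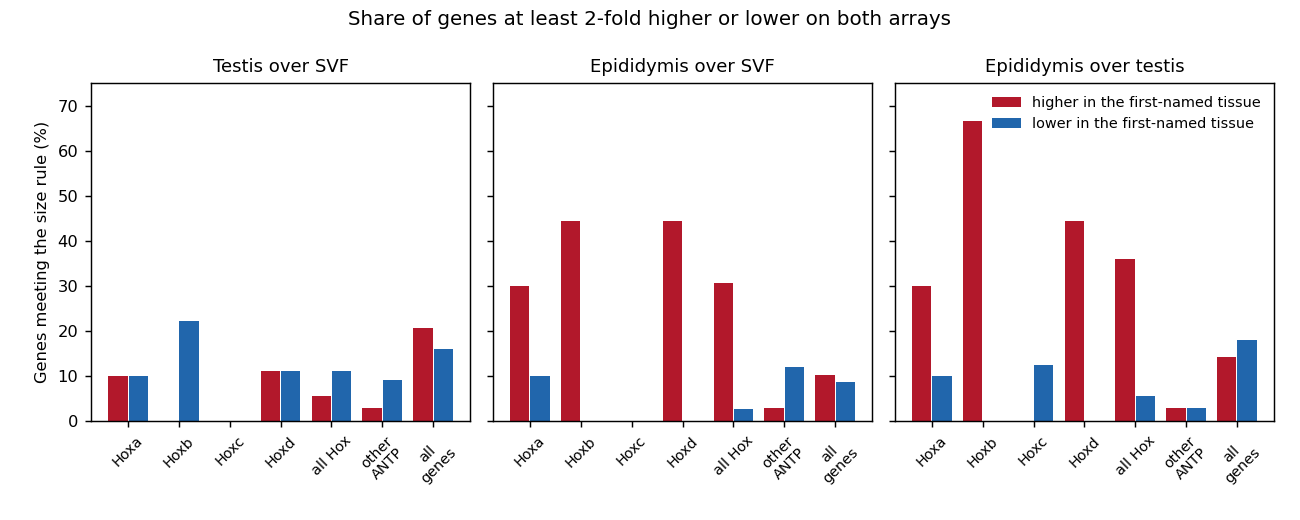
Share (%) of measured genes at least 2-fold higher (red) or lower (blue) in the first-named tissue on both arrays, for each Hox cluster, all 36 Hox genes, 33 other antennapedia-class homeobox genes (other ANTP) and all 18545 named genes. Hoxb stood at 66.7% higher in epididymis over testis, where all genes stood at 14.3%.

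The Hoxb cluster had the highest median of the 4 clusters in both comparisons with epididymis and the lowest in testis over SVF. Its 9 genes had a median log2 ratio of 1.77 in epididymis over testis, 1.23 in epididymis over SVF and -0.85 in testis over SVF. Hoxb6, a mid-cluster gene, gave 6.88 and 6.96 on the 2 arrays of epididymis over testis, a mean of 6.92 ± 0.06 or 121-fold. It ranked number 3 from the highest of 18545 genes in that comparison, and the arrays differed by little. The least-squares estimate over all 6 arrays was 7.36, so the fold is less exact than that SD. Over SVF, Hoxb6 in epididymis gave 4.77 and 4.03, with a mean of 4.40 ± 0.52 (21.1-fold, rank 66 from the highest). In testis over SVF it gave -3.70 and -3.99, with a mean of -3.84 ± 0.21, so that the level in testis was 14.3-fold lower (rank 342 from the lowest). Hoxb6 was thus the only member with a ratio beyond 3 in size in all 3 comparisons.

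Hoxb5, which acts in gut nerve and lung development, gave 3.53 and 3.94 in epididymis over testis (3.73 ± 0.29, 13.3-fold, rank 170 from the highest). Over SVF it gave 1.69 and 1.97 in epididymis (1.83 ± 0.20). Its arrays disagreed in testis over SVF, at 0.02 and -1.73, and it did not meet the size rule. Hoxb2, a hindbrain patterning gene, gave 2.45 and 3.11 in epididymis over testis (2.78 ± 0.47, 6.85-fold) and 1.63 and 2.14 in epididymis over SVF (1.88 ± 0.36). It gave -2.34 and -1.30 in testis over SVF (-1.82 ± 0.74). Hoxb2 and Hoxb6 were thus lower in testis than in SVF and higher in epididymis than in SVF on every array. Hoxb4, known for its role in blood stem cells, gave 1.10 and 2.43 in epididymis over testis (1.77 ± 0.94). Its ratios over SVF were 0.68 and 1.77 for epididymis, which misses the size rule on 1 array, and -1.32 and -0.44 for testis.

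Hoxb3 and Hoxb7 each had 2 probes, and in both genes the probes disagreed. The first probe of Hoxb3 gave 2.95 and 3.07 in epididymis over testis (3.01 ± 0.08, 8.05-fold), and the second gave -0.39 and 0.74 (0.17 ± 0.80). The first probe of Hoxb7, a gene whose regulatory DNA is widely used to label the Wolffian duct and its derivatives, gave 3.46 and 3.59 (3.53 ± 0.09, 11.5-fold), and the second gave 0.36 and 0.53 (0.45 ± 0.12). In epididymis over SVF the first probes gave 1.98 for Hoxb3 and 2.98 for Hoxb7 on average, whereas the second probe of Hoxb7 gave 0.69 and 0.31 and that of Hoxb3 0.34 and -0.51. In testis over SVF the first probes gave -1.27 for Hoxb3 and -1.59 for Hoxb7 on average. The second probe of Hoxb7 gave -0.00 and -0.15 there. That of Hoxb3 gave -2.09 and 0.27, so that its sign changed with the dyes. Averaged over probes, Hoxb3 had 1.28 and 1.90 in epididymis over testis (1.59 ± 0.44), 1.29 and 0.60 in epididymis over SVF and -1.55 and -0.64 in testis over SVF. Averaged in the same way, Hoxb7 had 1.91 and 2.06 (1.99 ± 0.11), 2.00 and 1.48 (1.74 ± 0.37) and -0.89 and -0.78. With the second probes alone neither gene met the size rule in epididymis over testis, and the Hoxb median there was 0.79, against 2.78 with the first probes. The transcripts that the probes match were not analysed here.

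**Figure D3:**
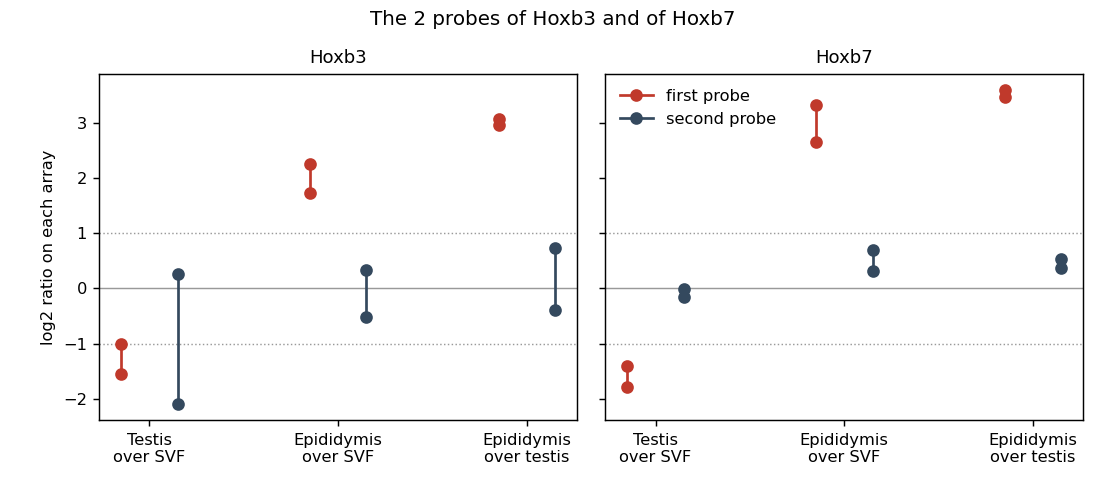
log2 ratio on each array (points, joined for the 2 arrays of a dye swap) for the first probe (red) and the second probe (dark blue) of Hoxb3 and Hoxb7 in the 3 comparisons, with dotted lines at 1 and -1. The first probes lay near 3 or above in epididymis over testis and the second probes stayed below 1.

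The ends of the Hoxb cluster did not meet the rule. Hoxb1 gave 0.38 and 1.08 in epididymis over testis, and Hoxb9 gave 0.36 and 1.22. Hoxb13, a gene of the prostate and the tail end of the body, gave -1.22 and -0.36 there, and -1.15 and 1.38 in epididymis over SVF, so that its sign changed with the dyes. All 6 measured genes from Hoxb2 to Hoxb7 were thus higher in epididymis than in testis when probes were averaged, and none of Hoxb1, Hoxb9 and Hoxb13 was.

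In the Hoxd cluster the genes at positions 3, 4, 8 and 9 were higher in epididymis than in testis and also met the rule against SVF. Hoxd8 gave 3.61 and 2.89 in epididymis over SVF (3.25 ± 0.51, 9.52-fold, rank 206 from the highest) and 1.58 and 1.10 in epididymis over testis (1.34 ± 0.34). It was also higher in testis than in SVF, with 2.22 and 1.72 (1.97 ± 0.35, 3.92-fold), which made it the highest member of that comparison. Its levels thus stood in the order epididymis, testis and SVF on every array. Hoxd4, a gene of neck vertebra and hindbrain patterning, gave 1.86 and 3.43 in epididymis over SVF (2.65 ± 1.12) and 1.64 and 3.26 in epididymis over testis (2.45 ± 1.15). Hoxd3 gave 1.17 and 2.30 (1.74 ± 0.80) in epididymis over SVF and 1.26 and 2.09 (1.67 ± 0.59) in epididymis over testis. Hoxd9, a gene of limb and hindlimb-level patterning, gave 2.52 and 1.26 in epididymis over SVF (1.89 ± 0.89) and 1.71 and 1.47 in epididymis over testis (1.59 ± 0.17). Between testis and SVF, Hoxd3, Hoxd4 and Hoxd9 did not meet the rule, at 0.17, -0.24 and -0.17 on average.

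Hoxd1, at the other end of the cluster and known from sensory neurons, was lower in testis than in SVF by a small and closely repeated amount, -1.07 and -1.04 (-1.06 ± 0.02). Its ratio lay so near the limit that centring each array on its median took it below. Hoxd10 to Hoxd13, which pattern limb ends and the external genitalia, did not meet the rule in any comparison. Hoxd10 gave 0.07 and 0.35 in epididymis over SVF, and Hoxd11 gave -0.14 on both arrays. Hoxd12 changed sign with the dyes in all 3 comparisons, with -1.88 and 1.26 in testis over SVF, and Hoxd13 gave 0.77 and -1.35 there. The cluster median was 0.74 in epididymis over testis, 0.21 in epididymis over SVF and -0.24 in testis over SVF. On the single arrays it was 0.49 and 0.98, 0.07 and 0.74, and -0.59 and 0.47 in that order, so that its sign in testis over SVF depended on the array.

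The Hoxa cluster was mixed. Hoxa10 and Hoxa11, which set regional identity of the genital ducts, were higher in epididymis. Hoxa10 gave 1.50 and 3.10 in epididymis over SVF (2.30 ± 1.13) and 1.89 and 2.38 in epididymis over testis (2.14 ± 0.34). Hoxa11 gave 1.45 and 3.32 over SVF (2.39 ± 1.32) and 1.37 and 3.75 over testis (2.56 ± 1.69). The 2 arrays of Hoxa11 differed by more than 1 in both, so that its size is less well measured than its direction. Hoxa3, required for thymus and parathyroid, gave 2.40 and 2.25 in epididymis over testis (2.33 ± 0.10). In epididymis over SVF Hoxa3 gave 1.03 and 3.72 (2.37 ± 1.91), and centring each array took it below the rule.

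Hoxa4, whose transcripts are known from mouse germ cells in meiosis and after, was higher in testis than in SVF at 1.56 and 1.17 (1.36 ± 0.27). In epididymis over testis it gave -0.67 and -1.54, which misses the rule on 1 array. Hoxa5, a gene of lung and skeletal patterning, was lower in both tissues than in SVF. It gave -2.35 and -1.58 in testis over SVF (-1.97 ± 0.55, 3.91-fold lower) and -1.07 and -1.05 in epididymis over SVF (-1.06 ± 0.02, 2.09-fold lower). Its ratio in epididymis over testis was 0.48 and 1.21. Hoxa5 was the single Hox gene that met the size rule as lower in epididymis than in SVF, and it did so narrowly. Hoxa13, a gene of the limb ends and genital tubercle, was lower in epididymis than in testis at -1.66 and -1.11 (-1.38 ± 0.39). It gave 0.80 and 1.41 in testis over SVF, just short of the rule on 1 array. Hoxa2, Hoxa6, Hoxa7 and Hoxa9 met the rule in no comparison, with means between -0.90 and 0.52. The cluster median was 0.49 in epididymis over testis, 0.30 in epididymis over SVF and 0.04 in testis over SVF. In testis over SVF it was -0.45 on one array and 0.16 on the other, and in epididymis over SVF 0.02 and 0.35.

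In the Hoxc cluster, only Hoxc9 met the rule, and only in epididymis over testis, where it was lower at -2.39 and -1.15 (-1.77 ± 0.88, rank 2538 from the lowest). Its ratios over SVF were -0.86 and -0.76 for epididymis and -0.09 and -0.23 for testis. Hoxc4 gave -1.23 and -0.87 in testis over SVF and 0.03 and 0.09 in epididymis over testis. Hoxc5 gave -1.28 and -0.61 in epididymis over SVF and 0.64 and 1.78 in epididymis over testis. Hoxc6 gave 0.23 and 1.10 in testis over SVF and -1.50 and -0.53 in epididymis over testis. Hoxc8, Hoxc10, Hoxc12 and Hoxc13 had means between -0.49 and 0.81 in the 3 comparisons. The cluster medians of -0.07, -0.14 and -0.24 in epididymis over testis, epididymis over SVF and testis over SVF were small. On the single arrays they were -0.09 and -0.06, -0.51 and -0.26, and -0.46 and -0.12 in that order, and the least-squares estimate over all 6 arrays turned the first to 0.12.

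**Figure D4:**
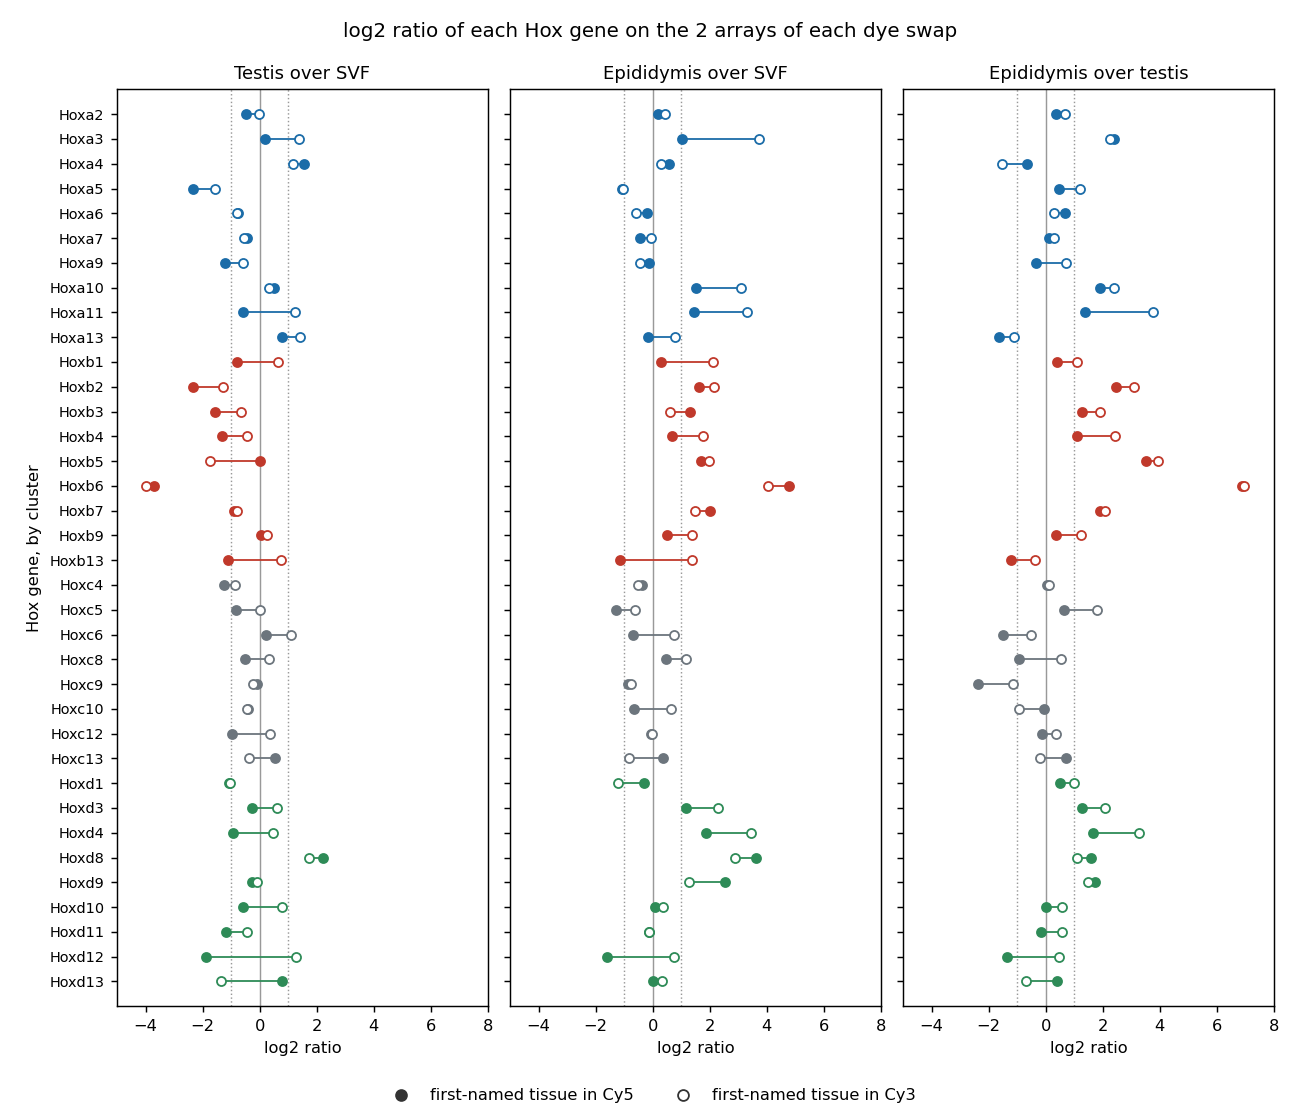
log2 ratio of each of the 36 Hox genes on the 2 arrays of each dye swap, with filled points for the array that carried the first-named tissue in Cy5 and open points for the exchanged array, coloured by cluster. Dotted lines stand at 1 and -1; the 2 arrays of Hoxb6 lie close together in all 3 panels, and those of Hoxd12 lie on either side of 0.

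By paralogue number, the 21 genes numbered 1 to 8 had a median of 1.21 in epididymis over testis. Of them, 10 (47.6%) were higher and none lower, against 14.3% and 18.0% of all genes. The 15 genes numbered 9 to 13 had a median of 0.18, with 3 (20.0%) higher and 2 (13.3%) lower. On the single arrays these medians were 0.66 and 1.21 for numbers 1 to 8 and -0.06 and 0.47 for 9 to 13. In epididymis over SVF, 8 (38.1%) of numbers 1 to 8 and 3 (20.0%) of 9 to 13 were higher, against 10.2% of all genes. Lower were 1 (4.76%) and none, against 8.68%. The medians there were 0.95 for numbers 1 to 8 and 0.12 for 9 to 13. On the single arrays they were 0.57 and 1.16, and -0.07 and 0.64. In testis over SVF they were -0.49 and -0.17, and on the single arrays -0.79 and -0.44, and -0.40 and 0.26. All 6 genes that met the rule there were numbered 8 or below. They were 2 higher and 4 lower among the 21 genes numbered 1 to 8, against 20.7% and 16.0% of all genes. Hoxa13 also met the limit there by the loop estimate and by 2-fold on the mean alone, so that split by number depended on the rule. Paralogues of number 3 were higher in epididymis than in testis in all 3 clusters that have one measured, with the probes of Hoxb3 averaged. The second probe of Hoxb3 alone did not meet the rule (0.17 on average). Paralogues of number 6 were unlike one another, with 6.92 for Hoxb6, 0.47 for Hoxa6 and -1.02 for Hoxc6. None of the 4 genes numbered 13 was higher in epididymis by the rule, against 14.3% of all genes over testis and 10.2% over SVF.

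Adjacent measured genes of a cluster were somewhat closer in ratio than genes sharing a number. The median difference in size between 32 adjacent pairs was 1.17 in epididymis over testis, against 1.47 for 113 other pairs of the same cluster and 1.51 for 36 pairs of the same number in different clusters. In epididymis over SVF the medians were 0.81, 0.91 and 1.42, and in testis over SVF 0.68, 0.81 and 0.91. These are descriptions over pairs that share genes.

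Ranks among all 18545 genes differed widely between the Hox genes that were highest or lowest in a comparison. In epididymis over testis, Hoxb5 and Hoxb2 ranked 170 and 542 from the highest, and Hoxa13 and Hoxa4 ranked 3276 and 3922 from the lowest. In epididymis over SVF, Hoxd8 and Hoxd4 ranked 206 and 345 from the highest. Hoxa5, Hoxc5 and Hoxc9 ranked 2026, 2310 and 2667 from the lowest there. In testis over SVF, Hoxd8, Hoxa4 and Hoxa13 ranked 2659, 3661 and 4258 from the highest, and Hoxa5 and Hoxb2 ranked 1746 and 1938 from the lowest.

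The Hox ratios differed more between the arrays of a dye swap than those of all genes. The median SD of a Hox gene was 0.57 in testis over SVF, 0.50 in epididymis over SVF and 0.51 in epididymis over testis, against 0.33, 0.37 and 0.35 over all named genes. The sign was the same on both arrays for 24, 30 and 29 of the 36 genes in those comparisons. Hox ratios were higher on the array with the first-named tissue in Cy3 for 25, 25 and 28 of 36 genes, whereas this was so for 39.8%, 42.7% and 38.1% of all genes. Median Hox ratios on the 2 arrays were -0.59 and -0.04 in testis over SVF, 0.23 and 0.75 in epididymis over SVF, and 0.43 and 0.84 in epididymis over testis. The sum around the loop of tissues (testis over SVF plus epididymis over testis minus epididymis over SVF), 0 without error, was at most 1 in size for 30 of 36 Hox genes (83.3%), against 92.4% of all genes. It ran between -1.32 for Hoxb6 and 1.73 for Hoxc5, with a median of -0.33.

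All named genes stood at 14.3% higher and 18.0% lower in epididymis over testis, and at 10.2% and 8.68% in epididymis over SVF. In testis over SVF they stood at 20.7% and 16.0%. Epithelial markers were higher in epididymis than in testis for 13 of 13 measured (median 2.89) and higher than in SVF for 11 of 13 (median 3.31). Smooth muscle markers were higher in epididymis than in testis for 4 of 8 (median 1.76) and higher than in SVF for 3 of 8 (median 0.88). Germ cell markers were lower in epididymis than in testis for 9 of 14 (median -2.67), and Sertoli and Leydig cell markers for 7 of 12 (median -1.93). Stromal and progenitor markers were higher in epididymis than in testis for 9 of 13 (69.2%, median 1.92), and endothelial and immune markers for 3 of 13 (23.1%, median 0.42). Endothelial and immune markers were lower than in SVF for 11 of 13 in epididymis (median -2.47) and for 11 of 13 in testis (median -3.86). The part of these cell types and of the germ cell and duct markers in the Hox ratios was not tested.

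The list of TALE homeobox genes held Pbx, Meis and Pknox genes and their relatives Tgif1 and Tgif2, and 9 of 11 were measured. Their medians were 0.07 in epididymis over testis, 0.04 in epididymis over SVF and -0.90 in testis over SVF. In those comparisons 2 (22.2%), 0 and 1 (11.1%) were higher, against 14.3%, 10.2% and 20.7% of all genes. Those lower were 1 (11.1%), 1 (11.1%) and 3 (33.3%), against 18.0%, 8.68% and 16.0%. Meis2 was higher in epididymis than in testis at 2.18 and 2.22 (2.20 ± 0.03) and lower in testis than in SVF at -2.01 ± 0.11. Pbx2 was higher in epididymis than in testis at 1.38 ± 0.40 and lower in testis than in SVF at -1.58 ± 0.37. Pknox2 was lower in epididymis than in testis at -2.13 ± 0.34 and higher in testis than in SVF at 2.64 ± 0.39. Tgif1 was lower in testis than in SVF at -1.53 ± 0.30, and Meis1 lower in epididymis than in SVF at -1.58 ± 0.53.

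Of 28 measured chromatin and Cdx regulators of Hox genes, 6 (21.4%) were higher and 0 lower in testis over SVF, against 20.7% and 16.0% of all genes. The counts in epididymis over testis were 1 (3.57%) higher and 5 (17.9%) lower, against 14.3% and 18.0%, and in epididymis over SVF 1 was higher and 1 lower (3.57% each, against 10.2% and 8.68%). The share higher in testis than in SVF and the share lower in epididymis than in testis were thus near those of all genes. List medians were 0.02 in testis over SVF, -0.16 in epididymis over testis and 0.06 in epididymis over SVF. The Polycomb subunit Bmi1 gave 4.27 and 3.72 in testis over SVF, with an SD of 0.39, and -2.58 and -3.40 in epididymis over testis (-2.99 ± 0.58). Ezh2, the Polycomb methyltransferase, gave -2.28 ± 0.10 in epididymis over testis and -1.04 ± 0.04 in epididymis over SVF. The trithorax-group cofactor Ash2l was higher in testis than in SVF at 2.75 ± 0.53, as was the demethylase Kdm6b at 2.45 ± 0.11. Scml2, a Polycomb-group protein of germ cells, was higher in testis than in SVF at 1.65 ± 0.25. Pcgf2 was lower in epididymis than in testis at -2.60 ± 0.79, and Rbbp5 was the 1 gene higher there at 1.09 ± 0.05.

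Of the retinoic acid pathway, 17 of 19 genes were measured, with medians of -0.19 in epididymis over testis, -0.22 in epididymis over SVF and -0.09 in testis over SVF. In those comparisons 2 (11.8%), 1 (5.88%) and 2 (11.8%) genes were higher, against 14.3%, 10.2% and 20.7% of all genes, and 3 (17.6%), 3 (17.6%) and 2 (11.8%) lower, against 18.0%, 8.68% and 16.0%. The enzyme Aldh1a3, which makes retinoic acid, was lower in testis than in SVF at -4.53 ± 0.03 and lower in epididymis than in SVF at -3.84 ± 0.14. Its relative Aldh1a1 was higher in epididymis than in SVF at 2.40 ± 0.62 and than in testis at 2.17 ± 0.61. Aldh1a2 was lower in epididymis than in testis at -2.45 ± 0.04 and than in SVF at -1.26 ± 0.16. Rdh10, which makes retinaldehyde, was higher in testis than in SVF at 2.33 ± 0.51 and lower in epididymis than in testis at -3.11 ± 0.77. Dhrs3, which turns retinaldehyde back to retinol, was higher in epididymis than in testis at 1.79 ± 0.76 and lower in testis than in SVF at -3.37 ± 1.06. Cyp26b1, which degrades retinoic acid, was higher in testis than in SVF at 1.38 ± 0.09.

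A list of urogenital tract and limb regulators held transcription factors and the Wnt ligands Wnt7a, Wnt9b and Wnt11. Among 24 measured, 5 (20.8%) were higher and 1 (4.17%) lower in epididymis over testis, against 14.3% and 18.0% of all genes. There were 3 (12.5%) higher and 1 (4.17%) lower in epididymis over SVF, against 10.2% and 8.68%, and 1 (4.17%) higher and 4 (16.7%) lower in testis over SVF, against 20.7% and 16.0%. List medians were -0.14, -0.09 and 0.03 in that order, near those of all genes. Gata3 and Pax8, regulators of the Wolffian duct, were higher in epididymis than in testis at 3.32 ± 0.41 and 3.02 ± 0.32. Against SVF they were higher in epididymis at 2.03 ± 0.31 and 3.23 ± 0.76. Emx2, also needed for the urogenital tract, was higher in epididymis than in testis at 2.50 ± 0.12 and than in SVF at 3.35 ± 0.06. Gata2 was higher in epididymis than in testis at 2.32 ± 0.36. Osr1 was lower in testis than in SVF at -3.06 ± 0.68, and Nr5a1, a factor of steroid-making cells, was lower in epididymis than in testis at -1.71 ± 0.91.

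Of 16 noncoding transcripts of the Hox clusters, 2 were measured. Hoxd3os1, an opposite-strand transcript at Hoxd3, gave 6.07 and 3.42 in testis over SVF (4.75 ± 1.87, 26.9-fold higher in testis). It gave -2.10 and -3.53 in epididymis over testis (-2.81 ± 1.01) and 2.43 and 0.43 in epididymis over SVF. Hoxd3 itself ran the other way against testis, at 1.26 and 2.09 in epididymis over testis. Hoxa11os, the antisense transcript of Hoxa11, had means of -0.10 in epididymis over testis, 0.13 in epididymis over SVF and 0.28 in testis over SVF. The strand that the probes read was not analysed here, so a gene and its opposite-strand partner may share signal.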

How the data were processed

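Transcripts of testis, epididymis and adipose SVF were measured on 6 two-colour arrays, and each tissue was on 4 of them. The authors deposited 1 signed value per array for each of 25344 probes, none missing, read here as log2 ratios that the authors computed from the 2 dyes and normalized by a method not given in the sources used here. Base and direction are not stated in the labels, and the ratio was taken as Cy5 over Cy3, the tissue named first in each title over the other. Across all probes as deposited, Pearson's r between the 2 arrays of a pair was -0.86 (testis with SVF), -0.64 (epididymis with SVF) and -0.77 (epididymis with testis), so the exchanged array had its sign turned. Column medians as deposited lay between 0.01 and 0.11. Spot intensities and background were not used here, and the small number of arrays limits the precision.

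Of 21112 annotated probes, 20456 were named by gene ID and 220 by symbol through the mouse gene table of GRCm38.p6, and 250 kept the annotated name. A further 156 with non-mouse symbols and 30 listing several genes were left unnamed, as were 4232 without annotation. Probes of a gene were averaged. Arrays of a dye swap hold the same 2 RNA extracts, so the 2 are 1 biological sample per tissue and no p-value is given. Hox genes meeting the size rule in any comparison were named with both array values, with the 3 highest and 3 lowest of each comparison, and from each other list up to 4 of largest ratio that met the rule. The Hox genes, the gene lists and the rules were chosen with earlier results of these data known. Alternatives were median centring, a least-squares loop estimate, 2-fold on the mean, 4-fold on both arrays, complete genes only, first or last probe, natural logarithms and leaving out each array. The rule for counting genes was tested on simulated data. Calculations used Python 3.11.15, pandas 2.3.3 and numpy 2.4.6.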

Additional observations from a re-analysis of the deposited data

How the results depend on the processing

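No median over all 36 Hox genes turned its sign under any alternative run, and no single Hox ratio that met the size rule did. For single ratios this was largely fixed in advance, because the rule asks for the same sign on both arrays. Only the loop estimate and, for Hoxb3 and Hoxb7, the choice of probe could have turned one. Medians near 0 did turn, namely Hoxa, Hoxd and paralogues 9 to 13 on single arrays. By the loop estimate, Hoxc turned in epididymis over testis (0.12) and Hoxa in testis over SVF (-0.04). Paralogues 9 to 13 turned likewise in epididymis over SVF (-0.05). Requiring 4-fold on both arrays left 4 of 15 Hox genes in epididymis over testis, 2 of 12 in epididymis over SVF (Hoxb6 and Hoxd8) and 1 of 6 in testis over SVF (Hoxb6). Reading the values as natural logarithms gave 10 genes in testis over SVF. Single arrays gave 18 to 20 genes in epididymis over testis, 16 to 18 in epididymis over SVF and 13 in testis over SVF on either array (2 higher and 11 lower, or 7 higher and 6 lower), because a single array cannot fail the rule on the other. The Hox median on single arrays ran between 0.43 and 0.84 in epididymis over testis, 0.23 and 0.75 in epididymis over SVF, and -0.59 and -0.04 in testis over SVF; the cause was not tested. Centring each array lost Hoxa3 in epididymis over SVF and Hoxd1 in testis over SVF. Shares of all genes under these alternatives were not counted, so the counts here describe the Hox genes alone. The last probe of each gene, an alternative chosen after the data were seen, lost Hoxb3 and Hoxb7 in epididymis over testis and Hoxb7 in epididymis over SVF. Of 51 counts and medians over all Hox genes under the alternatives, 44 stayed within the limits set for a change and 7 moved. These limits were wide. A median was held unchanged within the SD of its 2 single-array values. In testis over SVF, a count of 6 that became 9 on the mean alone was also held unchanged. All genes had values on all 6 arrays, so that filter changed nothing. No paired analysis was possible because each tissue is 1 RNA sample and the result comes from no test.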

Other observations

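Of 33 measured other antennapedia-class homeobox genes, relatives of the Hox genes outside the clusters, 1 (3.03%) was higher and 1 (3.03%) lower in epididymis over testis, against 14.3% and 18.0% of all genes. There were 1 (3.03%) higher and 4 (12.1%) lower in epididymis over SVF, against 10.2% and 8.68%, and 1 (3.03%) higher and 3 (9.09%) lower in testis over SVF, against 20.7% and 16.0%. Their medians were -0.06, 0.00 and -0.03. Meox2, a regulator of muscle and vessel development, gave -5.57 and -4.48 in epididymis over SVF (-5.02 ± 0.77) and -4.45 and -4.48 in testis over SVF (-4.46 ± 0.02). Hhex, a factor of endothelial and blood progenitors, gave -3.15 ± 0.21 in epididymis over SVF and -2.99 ± 0.16 in testis over SVF. Msx1 gave -1.45 ± 0.27 and -1.73 ± 0.05 in the same comparisons. Meox1 was lower in epididymis than in testis at -1.85 ± 0.29 and than in SVF at -2.24 ± 0.09. Tlx2 was higher in epididymis than in SVF at 1.74 ± 0.30 and than in testis at 1.28 ± 0.17, and Dlx5 was higher in testis than in SVF at 1.14 ± 0.09.

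Among 32 measured genes that flank the Hox clusters, 6 (18.8%) were higher and 5 (15.6%) lower in epididymis over testis, against 14.3% and 18.0% of all genes. There were 1 (3.12%) higher and 3 (9.38%) lower in epididymis over SVF, against 10.2% and 8.68%, and 8 (25%) higher and 8 (25%) lower in testis over SVF, against 20.7% and 16.0%. Their medians of 0.33, 0.26 and -0.17 had the signs of the Hox medians of 0.63, 0.30 and -0.27, and no test of a difference was made. Ttll6, which flanks Hoxb and encodes a tubulin-modifying enzyme, gave -3.77 ± 0.60 in epididymis over testis and 4.90 ± 0.04 in testis over SVF. Atp5g1, another flank gene of Hoxb that encodes an ATP synthase subunit, gave 2.22 ± 0.04 in epididymis over SVF. On the Hoxd side, Wipf1, an actin regulator of blood cells, gave -5.32 ± 0.70 in testis over SVF and -2.93 ± 0.60 in epididymis over SVF. The transcription factor Atf2 gave -2.87 ± 0.73 in epididymis over testis and 2.90 ± 0.53 in testis over SVF. Nfe2l2, a regulator of the oxidative stress response, gave -3.02 ± 0.20 in testis over SVF and -1.77 ± 0.06 in epididymis over SVF.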
